A study of Homo sapiens with 4 samples.

Results

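The heat shock proteins and the DNAJ cochaperones were followed in human embryonic stem cells labelled CPT2 KO or WT. Members were the genes whose symbols name an HSP90, HSPA, HSPB, HSPD, HSPE or HSPH protein or a DNAJA, DNAJB or DNAJC protein, matched by symbol alone. This gave 72 of the 59050 genes in the table, of which 68 had a count and 60 had enough counts to be tested. They comprise 29 heat shock protein genes and 43 DNAJ genes, with HSPA7 and DNAJB3 annotated as pseudogenes. All cells were HUES8, a human embryonic stem cell line, grown on Matrigel in mTeSR1 medium, and total RNA was sequenced. Of the 4 libraries, 2 are labelled with the genotype CPT2 KO and 2 with WT, and the treatment label reads WT in all 4. CPT2 is carnitine palmitoyltransferase 2, which lets mitochondria oxidise long-chain fatty acids. The sources used here do not give whether the knockout is 1 clone, which part of the gene was deleted or whether replicates are separate cultures. P-values thus reflect only how far these libraries differ among themselves, a spread that may be technical.

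Chaperones bind unfolded or newly made proteins and release them for folding. HSP70 proteins, the HSPA family, do this with ATP. DNAJ proteins bring them clients and start ATP hydrolysis, and HSP110 proteins and other exchange factors reload them. HSP90 acts later on signalling proteins and receptors, the chaperonin HSPD1 with its lid HSPE1 folds proteins inside mitochondria, and small heat shock proteins (HSPB) hold unfolded proteins without ATP. The cytosol, the endoplasmic reticulum (ER) and the mitochondria each keep their own HSP70, with their own DNAJ partners. Stress in the cytosol raises many of these genes through the factor HSF1, and stress in the ER raises others through ATF6 and XBP1.

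The promoters of 5 members are shown: the member that was called, the ER genes HSPA5, HSP90B1 and DNAJB11, and HSPA8 as the cytosolic HSP70 with the highest level. Each sequence is the 250 bases before the gene's start in RefSeq (GRCh38.p14), and capitals mark a heat shock element or an ER stress element.
DNAJA4 (chr15:78263895-78264144, plus strand): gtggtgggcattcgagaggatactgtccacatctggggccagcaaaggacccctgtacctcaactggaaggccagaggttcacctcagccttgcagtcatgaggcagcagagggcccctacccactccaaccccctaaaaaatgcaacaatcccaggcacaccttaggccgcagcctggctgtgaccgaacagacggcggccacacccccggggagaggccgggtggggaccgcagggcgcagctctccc
HSPA5 (chr9:125241344-125241593, minus strand): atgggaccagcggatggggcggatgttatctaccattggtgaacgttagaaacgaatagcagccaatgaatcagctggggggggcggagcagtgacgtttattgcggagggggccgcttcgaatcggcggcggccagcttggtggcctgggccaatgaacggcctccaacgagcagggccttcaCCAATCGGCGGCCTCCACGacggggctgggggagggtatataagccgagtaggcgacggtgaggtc
HSP90B1 (chr12:103930160-103930409, plus strand): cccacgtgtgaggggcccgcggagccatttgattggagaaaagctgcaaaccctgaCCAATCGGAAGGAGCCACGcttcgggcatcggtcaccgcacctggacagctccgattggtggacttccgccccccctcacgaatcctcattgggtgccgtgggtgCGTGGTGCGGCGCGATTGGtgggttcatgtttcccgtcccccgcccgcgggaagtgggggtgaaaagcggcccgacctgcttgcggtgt
DNAJB11 (chr3:186570470-186570719, plus strand): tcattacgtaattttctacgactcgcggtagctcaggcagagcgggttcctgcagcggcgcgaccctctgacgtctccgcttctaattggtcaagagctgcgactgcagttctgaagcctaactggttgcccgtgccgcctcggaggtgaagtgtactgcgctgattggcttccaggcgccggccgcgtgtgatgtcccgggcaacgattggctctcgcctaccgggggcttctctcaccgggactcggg
HSPA8 (chr11:123062137-123062386, minus strand): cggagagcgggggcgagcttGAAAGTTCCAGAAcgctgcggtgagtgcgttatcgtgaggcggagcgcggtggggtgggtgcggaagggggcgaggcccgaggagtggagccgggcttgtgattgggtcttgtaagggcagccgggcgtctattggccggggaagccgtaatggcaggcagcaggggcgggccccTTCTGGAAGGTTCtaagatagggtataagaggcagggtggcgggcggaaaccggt
For DNAJA4 the most upstream of 3 RefSeq windows is shown. The heat shock element was searched as the blocks GAA, TTC and GAA with 2 bases between blocks, and the ER stress element as CCAAT and CCACG with 9 bases between them. Both strands were read, in windows from 250 bases before to 50 bases after each start. RefSeq gave 82 such windows for 63 of the 72 members. Of these windows 7 held the heat shock element, against 172 (0.49%) of all 35116 windows. They belong to HSP90AA1, HSP90AB1, HSPA8, HSPA6, HSPD1, DNAJA1 and DNAJB6. In HSPA8, shown above, its copies began 230 and 55 bases before the start. The ER stress element was in 2 of the 82 windows, those of HSPA5 and HSP90B1, against 27 (0.0769%) of all windows. It began 66 bases before the start of HSPA5, and 194 and 89 bases before that of HSP90B1. A shorter form made of like blocks, ATTGG and CCACG with 1 base between them, was in 0.0541% of all windows and in 0 of the 82. A match describes letters only and is not evidence of binding. Only exact matches were counted, so a window without a match may still hold a variant of either element.

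The libraries held between 16887789 and 20460031 counts, which makes a single count 0.0485 to 0.0603 CPM (counts per scaled library size). The CPT2 transcript ran against the labels, with 233 and 170 counts in the libraries labelled CPT2 KO against 52 and 72 in those labelled WT (log2 fold change 1.78, SE 0.27, edgeR adjusted p = 0.0218). Every difference is therefore stated between libraries as labelled, as CPT2 KO over WT. Replicate 1 labelled WT stood apart: the chi-square per degree of freedom was 39.6 against its own replicate and 45.8 and 53.3 against the libraries labelled CPT2 KO, while replicate 2 labelled WT gave 12.3 and 12.6 against those. Mitochondrial transcripts took 7.84% and 7.73% of counts in the libraries labelled CPT2 KO, against 4.15% and 7.21% in replicates 1 and 2 labelled WT. All 8 pluripotency markers, POU5F1, NANOG and SOX2 among them, were present, with summed levels of 8869 and 9787 CPM in the libraries labelled CPT2 KO and 8782 and 8873 CPM in those labelled WT. In bulk RNA, fewer cells of a type and less RNA per cell cannot be told apart.

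Of the 60 tested members, 1 was higher in the libraries labelled CPT2 KO, DNAJA4, and 0 were lower. Over all 17564 tested genes, 0.359% were called higher and 0.0569% lower by edgeR's quasi-likelihood test at a Benjamini-Hochberg adjusted p of 0.05. DESeq2 also called DNAJA4 and 0 members lower (0.743% and 0.242% of all genes higher and lower), and limma-voom called 0 members (0.159% and 0.0114%). Without adjustment, 4 members had p under 0.05 with a higher level, DNAJA4, HSPA5, DNAJB11 and DNAJC30, and 1 with a lower level, DNAJC4. Over all genes, 4.88% were higher and 4.16% lower by that measure. In both directions together that was 8.33% of the members and 9.04% of all genes, so the members reached it about as often as genes in general. Most differences were small. Differences stayed within 1.5-fold in 53 of 60 members (88.3%, against 84.9% of all genes). The median log2 fold change was 0.076 over the members and 0.0017 over all genes. It was positive in 40 members and negative in 20, that is positive in 66.7% of members and in 50.3% of all genes. Both libraries labelled CPT2 KO lay above both labelled WT in 18 members (30.0%, against 21.1% of all genes), and below them in 5 (8.33% against 19.8%), DNAJC1, DNAJC4, DNAJC12, DNAJC14 and DNAJC27.

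**Figure D1:**
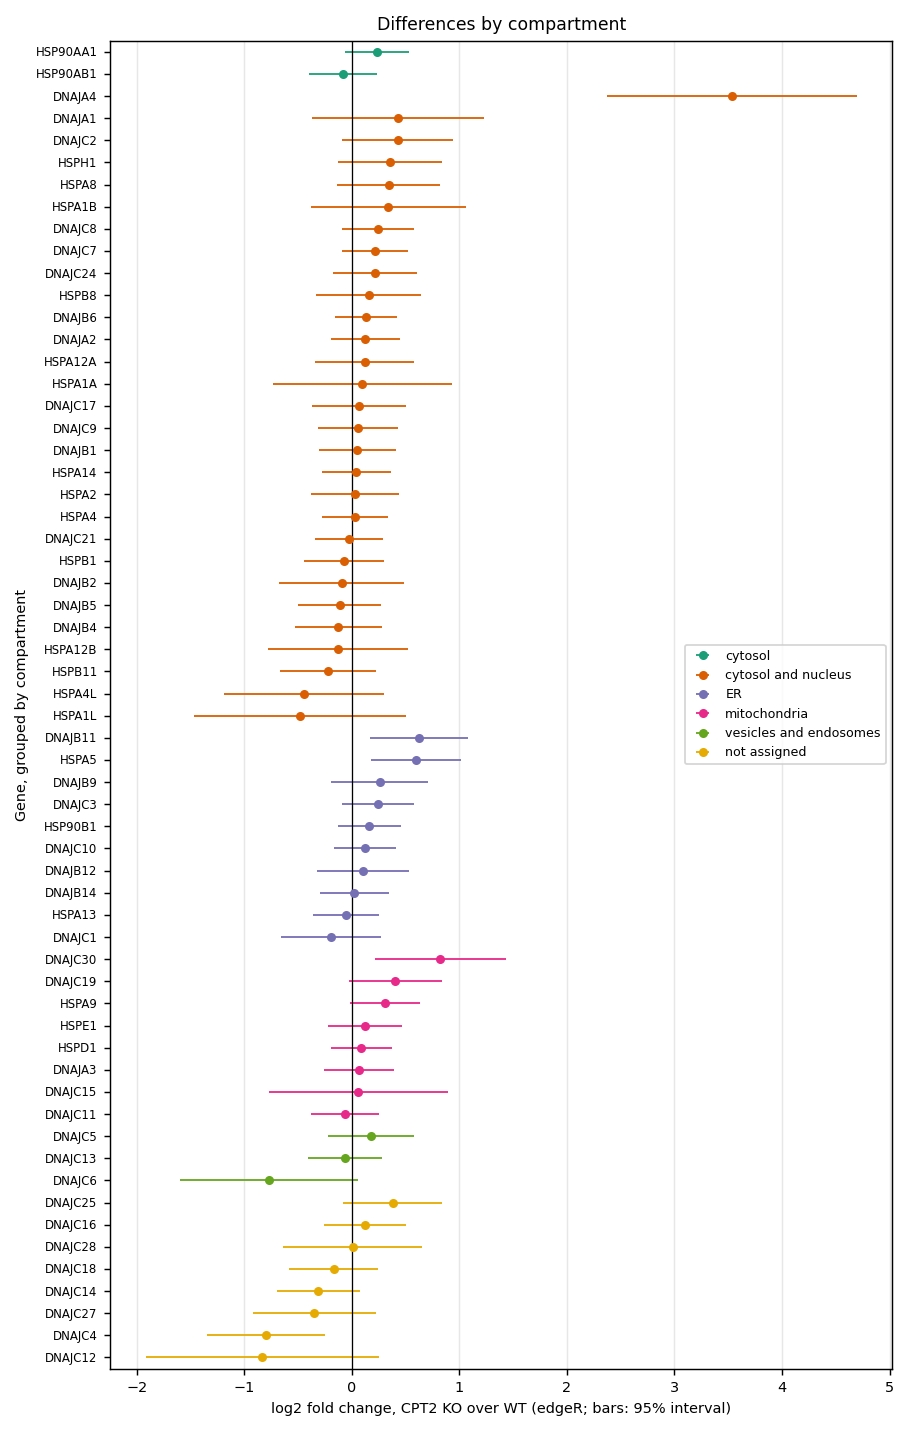
Log2 fold change of the 60 tested members, CPT2 KO over WT, with 95% intervals from edgeR, ordered within each compartment and coloured by it. DNAJA4 stands alone at 3.53, and the intervals of DNAJB11, HSPA5, DNAJC30 and DNAJC4 are the others that do not cross 0.

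DNAJA4, a cytosolic J-domain partner of HSP70, was a weakly expressed gene that rose 11.6-fold. It had 162 and 74 counts in the libraries labelled CPT2 KO, against 15 and 6 in those labelled WT. Scaled, these were 8.02 and 4.46 CPM labelled CPT2 KO, against 0.813 and 0.291 CPM labelled WT. The groups did not overlap, and replicate 1 was the higher library in each. The log2 fold change was 3.53 (SE 0.52, 95% interval 2.37 to 4.69, edgeR adjusted p = 0.0175, n = 2 each). Its mean level was 6.24 ± 2.52 CPM in the libraries labelled CPT2 KO and 0.552 ± 0.369 CPM in those labelled WT (SD, n = 2 each). It was the 1 member that passed the count filter through the libraries labelled CPT2 KO alone, at a cutoff of 0.5185 CPM. Replicate 1 labelled WT, at 0.813 CPM, also reached that cutoff, and replicate 2, at 0.291 CPM, did not. At least 1 library labelled CPT2 KO thus had to reach it for the gene to be tested. DNAJA4 is a protein-coding gene on the plus strand of chromosome 15, at 78264086 to 78282196 of GRCh38, and 6.7% of its exon bases overlap AC090607.3 and AC090607.4 on the other strand, which had 1 count in all libraries together. The promoter shown above held no exact match to either element. The call was lost without replicate 1 labelled CPT2 KO (log2 fold change 3.03, edgeR adjusted p = 0.0728) and with limma-voom (adjusted p = 0.111). It was kept without replicate 2 labelled CPT2 KO (3.88, edgeR adjusted p = 0.00319) and without replicate 1 (4.42, 2.24e-05) or replicate 2 (2.95, 0.000258) labelled WT.

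DNAJA4 was called beside a difference in germ layer markers, whose lists were drawn up with earlier results of these data known. The 8 mesendoderm markers summed to 326 and 101 CPM in the first and second library labelled CPT2 KO, against 14.5 and 15.4 CPM in those labelled WT. Of these markers 3 were called higher, NODAL, FGF8 and WNT3, FGF8 having passed the count filter through the libraries labelled CPT2 KO alone, and CER1 and GSC were at 0 in replicate 2 labelled WT. The 5 definitive endoderm markers summed to 22.0 and 5.18 CPM labelled CPT2 KO, against 1.84 and 1.70 CPM labelled WT, with SOX17 and GATA6 at 0 in both libraries labelled WT. Of these, 0 of the 3 tested were called (edgeR), and 2 had an unadjusted p under 0.05. Both sums, like DNAJA4, were highest in replicate 1 labelled CPT2 KO. The 5 neuroectoderm markers summed to 32.8 and 22.5 CPM labelled CPT2 KO, against 50.1 and 31.4 CPM labelled WT, with 3 of the 5 at negative and 2 at positive log2 fold changes. SOX1 and SIX6 were called lower, both having passed the count filter through the libraries labelled WT alone, while PAX6 and OTX2 lay at 1.01 and 1.249 without a call (edgeR adjusted p = 0.664 and 0.626). The 6 fibroblast markers summed to 218 and 196 CPM labelled CPT2 KO, against 193 and 222 CPM labelled WT, with 0 of 3 tested called (edgeR, and 0 at an unadjusted p under 0.05) and COL3A1, DCN and LUM at or near 0 in every library. Their part in the DNAJA4 result was not tested.

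**Figure D2:**
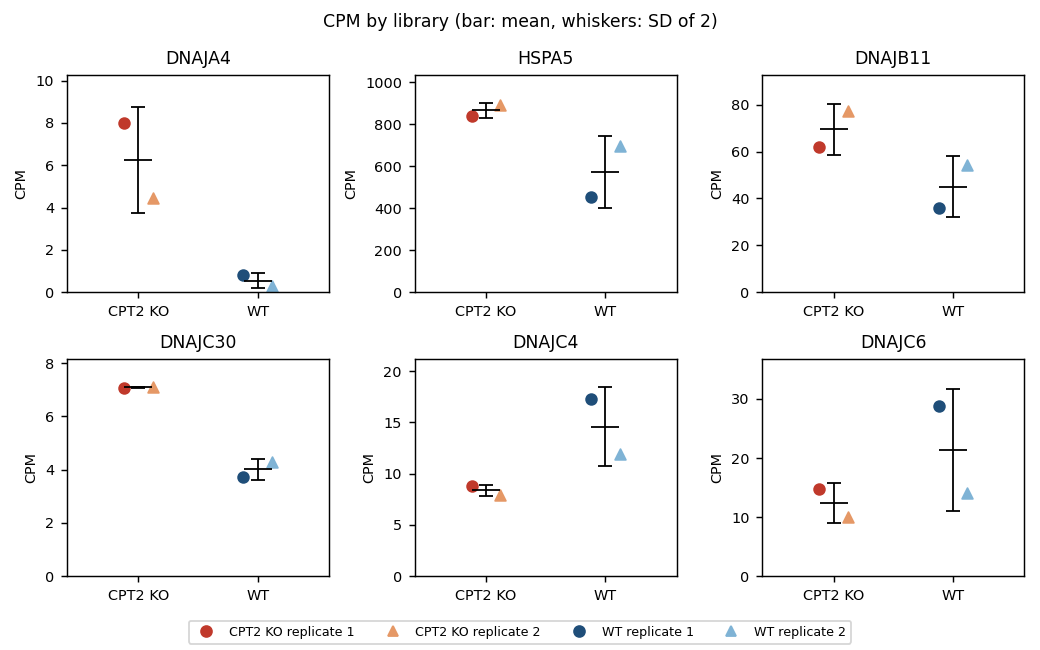
CPM by library for the 5 members with an unadjusted p under 0.05 and for DNAJC6, with CPT2 KO left of WT, a bar for the mean of 2 libraries and whiskers for the SD. DNAJA4 had 8.02 and 4.46 CPM labelled CPT2 KO against 0.813 and 0.291 CPM labelled WT, and replicate 1 labelled WT was the lowest library for HSPA5, DNAJB11 and DNAJC30 and the highest for DNAJC4 and DNAJC6.

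The other DNAJA genes were more abundant and were not called. DNAJA1, a major cytosolic partner of HSP70, had 73.2 and 102 RPKM in the first and second library labelled CPT2 KO, against 47.0 and 83.3 RPKM labelled WT. RPKM, CPM per kilobase of gene, is used wherever levels of different genes are compared. The groups overlapped, and the log2 fold change was 0.43 (SE 0.32, edgeR adjusted p = 0.717). Without replicate 2 labelled WT, which leaves the library that stood apart as the WT side, DNAJA1 was called at 0.90 (edgeR adjusted p = 0.000875), and without replicate 1 the value was 0.075. DNAJA2, its close relative, had 34.4 and 41.2 RPKM labelled CPT2 KO, against 32.7 and 36.8 RPKM labelled WT, with overlap.

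The cytosolic HSP90 pair stood at the top of the family in every library. HSP90AB1, the constitutive form, had 1239 and 1212 RPKM in the libraries labelled CPT2 KO, against 1409 and 1188 RPKM in those labelled WT. HSP90AA1, the stress-inducible form, had 553 and 513 RPKM labelled CPT2 KO, against 441 and 465 RPKM labelled WT. The libraries overlapped for HSP90AB1 and did not for HSP90AA1. The log2 fold changes were -0.084 (95% interval -0.40 to 0.23, edgeR adjusted p = 0.886) and 0.23 (-0.064 to 0.53, edgeR adjusted p = 0.630), and HSP90AB1 turned to 0.044 without replicate 1 labelled WT. The ratio of HSP90AB1 to HSP90AA1 by RPKM was 2.24 and 2.36 labelled CPT2 KO, against 3.19 and 2.55 labelled WT. By mean RPKM the order went on with HSPA8, HSPD1, HSP90B1, HSPA5, HSPA4, HSPA9, DNAJA1 and DNAJC8. Some neighbours in this order had ranges over the 4 libraries that overlapped. These were HSP90AA1 and HSPA8, HSPA8 and HSPD1, HSPA5 and HSPA4, HSPA9 and DNAJA1, and DNAJA1 and DNAJC8. HSP90AA1 still lay above HSPA8 in every library, whereas the order within each of the other pairs differed between libraries. The 5 members with the highest RPKM took 68.3% and 67.6% of the members' summed CPM labelled CPT2 KO, against 71.6% and 67.3% labelled WT. Of the 60 tested members, 56 averaged at least 1 RPKM over the 4 libraries.

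**Figure D3:**
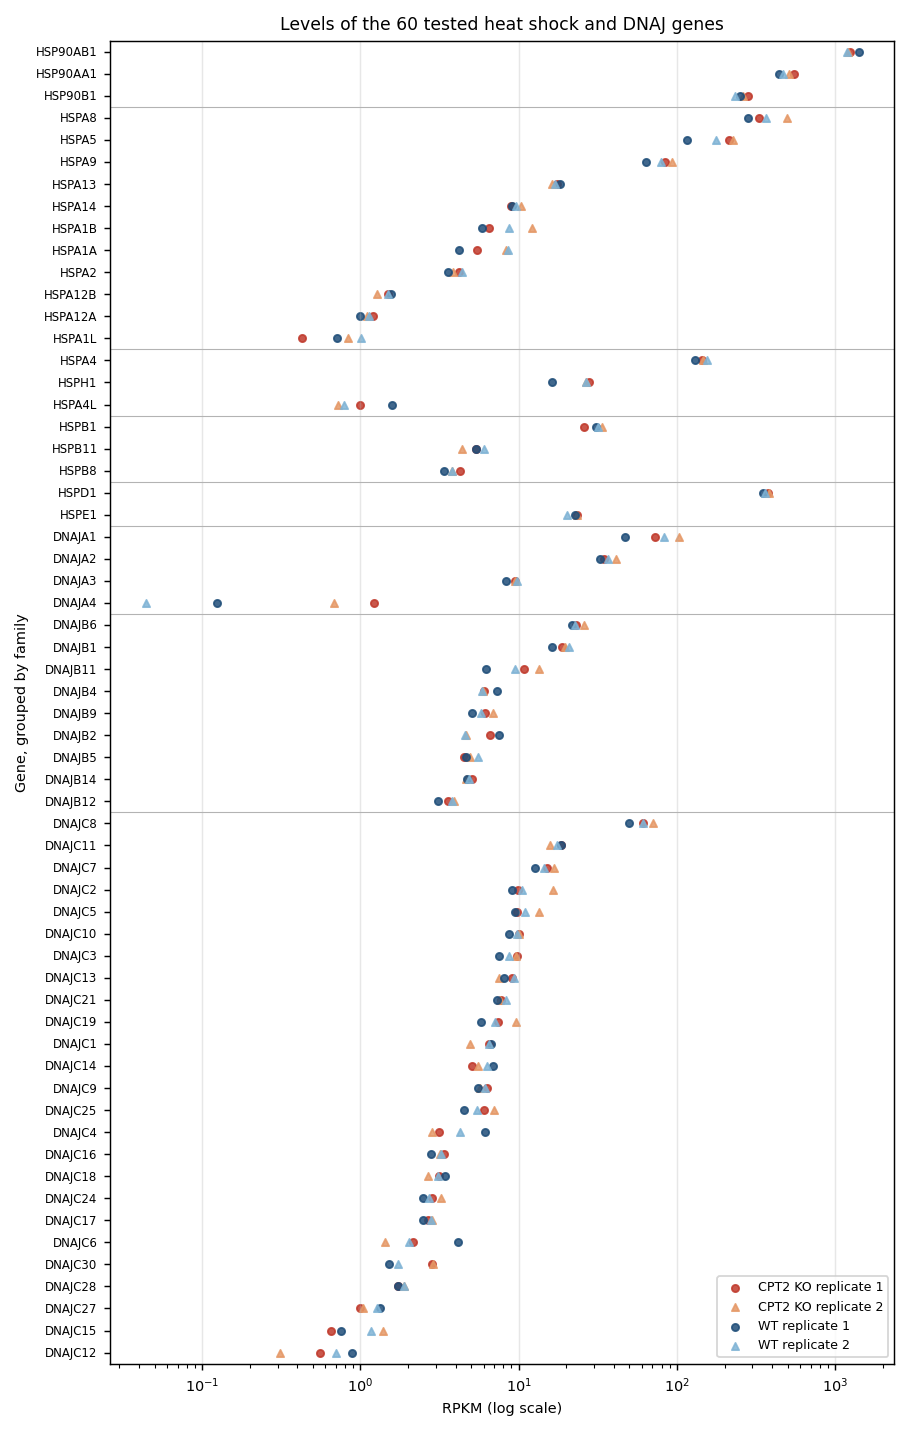
RPKM of the 60 tested members in each of the 4 libraries on a log scale, in blocks by family (HSP90, HSPA, HSP110, HSPB, chaperonin, DNAJA, DNAJB, DNAJC) and by mean level within each. The 4 libraries lie close together for most genes; DNAJA4 spans the widest range, from 0.0442 RPKM in replicate 2 labelled WT to 1.22 RPKM in replicate 1 labelled CPT2 KO.

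Of the 10 cytosolic and nuclear HSPA genes, 8 were tested, 0 were called (edgeR, and 0 at an unadjusted p under 0.05), and the libraries overlapped in all 8. HSPA8, the constitutive HSP70, had 328 and 493 RPKM in the first and second library labelled CPT2 KO, against 280 and 367 RPKM labelled WT. Replicate 2 was the higher library in both groups, and the log2 fold change was 0.34 (SE 0.21, edgeR adjusted p = 0.652). It lay at 0.61 and 0.021 with replicates 1 and 2 labelled CPT2 KO left out in turn, and at 0.16 and 0.55 with those labelled WT left out, in no case with a call. HSPA1A, an inducible HSP70, had 5.42 and 8.32 RPKM labelled CPT2 KO, against 4.17 and 8.56 RPKM labelled WT. HSPA1B had 6.47 and 12.1 RPKM labelled CPT2 KO, against 5.88 and 8.70 RPKM labelled WT. Both were far below HSPA8, and replicate 2 was again the higher library in each group. Their log2 fold changes were 0.097 and 0.34 (edgeR adjusted p = 0.953 and 0.768). HSPA1A turned to -0.33 when replicate 1 labelled WT was left out and stood at 0.71 when replicate 2 was. It also turned negative without replicate 2 labelled CPT2 KO, so its direction rested on which libraries were kept. HSPA1A and HSPA1B encode near-identical proteins and lie close together on chromosome 6 at 31815464 to 31817946 and 31827735 to 31830255, and 36.5% of HSPA1B exon bases also lie in AL671762.1. The split of their reads is therefore uncertain. HSPA6, which is silent without heat stress in most cells, and its neighbour HSPA7, annotated as a pseudogene, had at most 5 counts in any library. HSPA1L, whose protein is found mainly in testis, had 0.430 and 0.829 RPKM labelled CPT2 KO, against 0.706 and 1.002 RPKM labelled WT (-0.48, edgeR adjusted p = 0.762). HSPA2, HSPA12A and HSPA12B had log2 fold changes between -0.13 and 0.12.

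The HSP110 genes, whose proteins reload HSP70 with ATP, gave 0 calls among 3 (edgeR, and 0 at an unadjusted p under 0.05). HSPA4 had 144 and 146 RPKM in the libraries labelled CPT2 KO, against 130 and 155 RPKM in those labelled WT (log2 fold change 0.025, edgeR adjusted p = 0.970). HSPH1 had 27.9 and 26.8 RPKM labelled CPT2 KO, against 16.1 and 26.6 RPKM labelled WT. For HSPH1, 3 libraries lay together and replicate 1 labelled WT was low. Its log2 fold change was 0.35 (edgeR adjusted p = 0.646), 0.038 without replicate 1 labelled WT, and 0.76 with a call (adjusted p = 0.00166) without replicate 2. HSPA4L had 0.995 and 0.722 RPKM labelled CPT2 KO, against 1.58 and 0.785 RPKM labelled WT. Here replicate 1 labelled WT was the high library. The log2 fold change was -0.45 (edgeR adjusted p = 0.707), 0.14 without replicate 1 labelled WT, and -0.87 with a call (adjusted p = 0.0324) without replicate 2.

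Among the 10 ER members, HSPA5 and DNAJB11 had the largest differences, but 0 of the 10 were called by edgeR, and these 2 had an unadjusted p under 0.05. A positive log2 fold change was found in 8 and a negative in 2, with a median of 0.14, and both libraries labelled CPT2 KO lay above both labelled WT in 6 of the 10, where 21.1% of all genes did so. HSPA5, also known as BiP, is the HSP70 of the ER lumen. It had 841 and 891 CPM in the libraries labelled CPT2 KO, against 453 and 696 CPM in those labelled WT. The groups did not overlap, and replicate 1 labelled WT was the low library. HSPA5 was 1.51-fold higher (log2 fold change 0.59, SE 0.19, 95% interval 0.17 to 1.01) without a call (edgeR adjusted p = 0.358). DNAJB11, a soluble ER partner of HSPA5, had 61.8 and 77.3 CPM labelled CPT2 KO, against 35.8 and 54.4 CPM labelled WT. Its libraries followed the same order within WT and did not overlap between groups. DNAJB11 was 1.54-fold higher (log2 fold change 0.62, SE 0.21, 95% interval 0.16 to 1.08), again without a call (edgeR adjusted p = 0.387). DNAJB11 shares 23.2% of its exon bases with AC068631.2, AC068631.1 and TBCCD1, so its reads are uncertain. Leaving out replicate 1 labelled WT put HSPA5 at 0.32 (edgeR adjusted p = 0.806) and DNAJB11 at 0.35 (0.814), and without replicate 2 they passed at 0.94 and 0.96 (edgeR adjusted p = 9.18e-05 and 0.000512). The size of both differences thus moved by over 1.5-fold with the WT library kept, while the direction did not.

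HSP90B1, the ER form of HSP90 and the other member with the ER stress element shown above, differed less. It had 279 and 260 RPKM in the libraries labelled CPT2 KO, against 250 and 232 RPKM in those labelled WT. The groups did not overlap, and the log2 fold change was 0.16 (95% interval -0.13 to 0.45, edgeR adjusted p = 0.731). For HSP90B1 replicate 2 labelled WT was the low library, unlike for HSPA5. DNAJC3, which binds unfolded proteins in the ER lumen, had 9.71 and 9.56 RPKM labelled CPT2 KO, against 7.56 and 8.73 RPKM labelled WT (log2 fold change 0.24, edgeR adjusted p = 0.652). DNAJC10, a reductase of misfolded disulfides, had 10.06 and 10.04 RPKM labelled CPT2 KO, against 8.74 and 9.74 RPKM labelled WT (0.12, edgeR adjusted p = 0.798). DNAJB9, which holds the stress sensor IRE1 inactive with HSPA5, did not overlap between groups either (0.26, edgeR adjusted p = 0.718). The membrane-bound DNAJB12 and DNAJB14 and the HSP70 relative HSPA13 overlapped, with log2 fold changes between -0.054 and 0.10. DNAJC1, a membrane partner of HSPA5, was the ER member with both libraries labelled CPT2 KO below both labelled WT (-0.20, edgeR adjusted p = 0.797). Summed over the 10 genes, the ER level was 2679 and 2640 CPM labelled CPT2 KO, against 2080 and 2287 CPM labelled WT. With replicate 1 labelled WT left out the median of the 10 was 0.095, and with replicate 2 left out it was 0.23.

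Of the 8 mitochondrial members 0 were called (edgeR), 1 had an unadjusted p under 0.05, and 7 had a positive log2 fold change, with a median of 0.10. That median was 0.25 without replicate 1 labelled CPT2 KO and 0.29 without replicate 2 labelled WT, and 5 of the 8 were positive without replicate 1 labelled WT. HSPD1, the HSP60 chaperonin, had 374 and 381 RPKM in the libraries labelled CPT2 KO, against 350 and 361 RPKM in those labelled WT. HSPE1, the HSP10 lid, had 23.5 and 23.2 RPKM labelled CPT2 KO, against 22.8 and 20.3 RPKM labelled WT. Neither overlapped between groups, although the steps were small, at log2 fold changes of 0.087 (95% interval -0.20 to 0.37, edgeR adjusted p = 0.862) and 0.12 (-0.23 to 0.46, adjusted p = 0.842). The ratio of HSPD1 to HSPE1 by RPKM was 15.9 and 16.4 labelled CPT2 KO, against 15.3 and 17.8 labelled WT. HSPE1 reads are uncertain, since 23.9% of its exon bases also lie in HSPE1-MOB4 or HSPD1, and the table lists 26 HSPE1 pseudogenes with 232 and 245 counts labelled CPT2 KO and 114 and 250 labelled WT. HSPA9, the mitochondrial HSP70 that also pulls proteins through the import channel, had 84.1 and 93.2 RPKM labelled CPT2 KO, against 63.9 and 79.1 RPKM labelled WT. The groups did not overlap, and replicate 1 labelled WT was the low library (log2 fold change 0.31, SE 0.15, edgeR adjusted p = 0.570).

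DNAJC30, a small mitochondrial J-domain protein known for its part in complex I repair, had the largest difference of the compartment. It had 7.08 and 7.11 CPM in the libraries labelled CPT2 KO, against 3.74 and 4.27 CPM in those labelled WT. Replicates lay close together in both groups, and the groups were well apart. DNAJC30 was 1.77-fold higher (log2 fold change 0.82, SE 0.28, 95% interval 0.21 to 1.43) without a call (edgeR adjusted p = 0.393), and over 16 alternatives it ranged from 0.73 to 0.92 without a call. On the opposite strand, BUD23 shares 14.4% of its exon bases, so its reads are uncertain. DNAJC19, a part of the import motor, had 26.5 and 34.5 CPM labelled CPT2 KO, against 20.6 and 25.4 CPM labelled WT (log2 fold change 0.40, edgeR adjusted p = 0.583). DNAJC15, its close relative, overlapped (0.060). DNAJA3, the matrix partner of HSPA9, and DNAJC11, a part of the inner membrane scaffold, also overlapped, at 0.065 and -0.065, and each changed sign with 1 library left out. Beside these differences the share of mitochondrial transcripts was lower in replicate 1 labelled WT, as given above, and its part in them was not tested.

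The remaining J-domain genes with a cytosolic or nuclear place gave 0 calls (edgeR, and 0 at an unadjusted p under 0.05) among 5 tested DNAJB and 7 tested DNAJC genes. DNAJB1, the inducible partner of HSPA1A and a sensitive target of HSF1, had 18.7 and 19.7 RPKM in the libraries labelled CPT2 KO, against 16.1 and 20.9 RPKM in those labelled WT. The WT libraries enclosed the others, and the log2 fold change was 0.049 (edgeR adjusted p = 0.946). DNAJB6, which keeps aggregation-prone proteins soluble, had 22.9 and 25.8 RPKM labelled CPT2 KO, against 21.6 and 22.8 RPKM labelled WT (0.13, edgeR adjusted p = 0.781). DNAJC8, a splicing-associated protein with the highest level of its class, had 60.8 and 70.6 RPKM labelled CPT2 KO, against 49.9 and 61.4 RPKM labelled WT (0.24, edgeR adjusted p = 0.654). DNAJC2, which works on the ribosome with HSPA14, had 9.88 and 16.5 RPKM labelled CPT2 KO, against 9.09 and 10.5 RPKM labelled WT. For DNAJC2 replicate 2 labelled CPT2 KO stood above the other 3 libraries (log2 fold change 0.42, edgeR adjusted p = 0.617). Its partner HSPA14 had 8.98 and 10.3 RPKM labelled CPT2 KO, against 9.07 and 9.66 RPKM labelled WT. DNAJC7, which links HSP70 to HSP90, lay higher in both libraries labelled CPT2 KO than in both labelled WT without a call (log2 fold change 0.22, edgeR adjusted p = 0.661), as did DNAJC24 (0.21, edgeR adjusted p = 0.735). DNAJB2, DNAJB4, DNAJB5, DNAJC9, DNAJC17 and DNAJC21 overlapped, with log2 fold changes between -0.13 and 0.062.

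The 3 lowest log2 fold changes, none of them called, were those of DNAJC12, DNAJC4 and DNAJC6, J-domain genes of vesicles or with no assigned compartment. DNAJC4, whose function is little known, had 8.76 and 7.95 CPM in the libraries labelled CPT2 KO, against 17.3 and 11.9 CPM in those labelled WT. The groups did not overlap, and replicate 1 labelled WT was the highest library. DNAJC4 had a log2 fold change of -0.80 (SE 0.25, 95% interval -1.35 to -0.25) without a call (edgeR adjusted p = 0.339). Leaving out replicate 1 labelled WT gave -0.50, and leaving out replicate 2 gave -1.05 with a call (edgeR adjusted p = 0.00854). Its exons overlap NUDT22 and AP001453.1, so its reads are uncertain. DNAJC6, auxilin, strips clathrin from vesicles and is best known in neurons. It had 14.85 and 10.003 CPM labelled CPT2 KO, against 28.7 and 14.1 CPM labelled WT. Replicate 1 labelled WT stood above the other 3, which overlapped. Auxilin's log2 fold change was -0.77 (SE 0.35, edgeR adjusted p = 0.576), -0.17 without replicate 1 labelled WT, and -1.20 with a call (adjusted p = 0.000403) without replicate 2.

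DNAJC12, a partner of aromatic amino acid hydroxylases, had 1.19 and 0.663 CPM in the libraries labelled CPT2 KO, against 1.90 and 1.505 CPM in those labelled WT. At this level the interval of the log2 fold change was wide (-0.83, 95% interval -1.92 to 0.25, edgeR adjusted p = 0.637). DNAJC14 and DNAJC27 also lay lower without a call, at -0.31 and -0.35 (edgeR adjusted p = 0.621 and 0.702), and 58.1% of DNAJC14 exon bases are shared with other genes. The synaptic vesicle protein gene DNAJC5 had 9.72 and 13.5 RPKM labelled CPT2 KO, against 9.54 and 11.01 RPKM labelled WT (0.17, edgeR adjusted p = 0.790). DNAJC13, an endosomal J-domain gene, overlapped at -0.065. Over the 8 tested genes with no assigned compartment the median was -0.24, with both libraries labelled CPT2 KO below both labelled WT in 4 (19.8% of all genes) and above them in 1 (21.1% of all genes), DNAJC25 (0.38, edgeR adjusted p = 0.620). DNAJC16, DNAJC18 and DNAJC28 overlapped, with log2 fold changes between -0.17 and 0.12.

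Of the 8 small heat shock genes 3 were tested and 0 called (edgeR, and 0 at an unadjusted p under 0.05). HSPB1, or HSP27, had 25.9 and 33.4 RPKM in the libraries labelled CPT2 KO, against 30.7 and 31.8 RPKM in those labelled WT. The libraries overlapped (log2 fold change -0.077, edgeR adjusted p = 0.918). HSPB11, which despite its name works in intraflagellar transport, had 5.40 and 4.36 RPKM labelled CPT2 KO, against 5.36 and 6.03 RPKM labelled WT (-0.22, edgeR adjusted p = 0.759). HSPB8, which acts with BAG3 in clearing misfolded proteins, lay at 0.16 and overlapped. Across all families 12 members were not tested. HSPB2, HSPB3 and DNAJB8, genes known from muscle or testis, and the pseudogene DNAJB3 had 0 counts in every library. A count of 0 allows up to 3 counts, or 0.146 to 0.181 CPM, in a library. HSPA6, HSPA7, HSPB6, HSPB7, HSPB9, DNAJB7, DNAJB13 and DNAJC22 had at most 20 counts in any library.

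Genes that work with the members were set beside them in 7 lists of 90 genes, of which 86 were tested and 0 called (edgeR, and 0 with DESeq2 or limma-voom). At an unadjusted p under 0.05 (edgeR) the lists held 9 higher entries and 1 lower. By that measure 4.88% of all genes were higher and 4.16% lower. Among heat shock factors, HSF1 had 49.6 and 52.2 CPM in the libraries labelled CPT2 KO, against 46.3 and 48.2 CPM in those labelled WT (log2 fold change 0.11, edgeR adjusted p = 0.848). The list's median was -0.064 over 4 tested genes, with HSBP1, a binding protein of HSF1, at 0.12 and HSF2BP at -0.64. HSF4 had 0.198 and 0.241 CPM labelled CPT2 KO, against 3.04 and 0.194 CPM labelled WT, with replicate 1 labelled WT alone high, and it was not tested. Of 13 HSP70 cochaperones the median was 0.063, with 9 positive, but it turned to -0.0049 without replicate 2 labelled CPT2 KO and to -0.0016 without replicate 1 labelled WT, with 6 positive in both cases. BAG2, which inhibits the ubiquitin ligase CHIP, had 25.7 and 27.1 CPM labelled CPT2 KO, against 13.3 and 17.6 CPM labelled WT, with no overlap (0.77, SE 0.20, edgeR adjusted p = 0.206). ST13, the highest of them by CPM, lay at 0.014.

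The 18 HSP90 cochaperones had a median of 0.10, with 3 higher and 0 lower at an unadjusted p under 0.05. This list's median fell to 0.048 when replicate 1 labelled WT was dropped and rose to 0.20 when replicate 2 of that group was. PTGES3, the p23 cochaperone and the highest by CPM, had a log2 fold change of 0.031. TTC4 had the largest, at -0.87 and under 1 CPM in 3 of the 4 libraries. It passed the count filter through the libraries labelled WT alone. TRiC and prefoldin, which fold actin and tubulin, had a median of 0.10 over 14 genes, with 13 positive and 1 negative. The median was 0.18 without replicate 1 labelled CPT2 KO, 0.056 with 10 positive without replicate 2 of that group, and 0.17 without replicate 2 labelled WT. Their log2 fold changes ranged from -0.0062 in CCT8 to 0.43 in PFDN6, with 0.11 in CCT5, which had the highest CPM. For 24 genes of ER folding and the unfolded protein response the median was 0.086, with 15 positive and 9 negative. XBP1 and ATF6, the factors that act on the ER stress element, lay at 0.53 (edgeR adjusted p = 0.278) and 0.67 (0.306), neither overlapping between groups, and with HERPUD1 they were the 3 genes of this list at an unadjusted p under 0.05. These 3 were chosen for mention after their values were seen. CANX, the highest of the list by CPM, lay at 0.094. TXNDC5 lay at -0.97, with 0.445 and 1.27 CPM labelled CPT2 KO, against 1.52 and 1.70 CPM labelled WT. It too passed the count filter through the libraries labelled WT alone. Mitochondrial proteases and import partners had a median of 0.036 over 13 tested genes, which was -0.026 without replicate 1 labelled CPT2 KO and 0.069 without replicate 1 labelled WT, with LONP1 at -0.28 and YME1L1 at 0.036. SEC63, a J-domain gene of the ER under another name, lay at 0.15.

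Replicate 1 labelled WT was the lowest of the 4 libraries in 35 of the 60 tested members (58.3%, against 32.5% of all genes) and the highest in 14 (23.3% against 31.8%). Replicate 2 labelled CPT2 KO was the highest in 24 members (40.0% against 29.2% of all genes). Without replicate 1 labelled WT, edgeR called 1 member higher, DNAJA4, and 0 lower, where 0.643% and 0.205% of all genes were called, and the members' median log2 fold change was 0.035, with 33 positive and 27 negative. Without replicate 2 labelled WT it called 5 higher, DNAJA4, DNAJA1, HSPA5, DNAJB11 and HSPH1, and 3 lower, DNAJC4, DNAJC6 and HSPA4L, where 3.02% and 3.84% of all genes were called, and the median was 0.17. Without replicate 1 labelled CPT2 KO it called 0 members (0.176% and 0.0114% of all genes higher and lower), and without replicate 2 it called DNAJA4 (0.461% and 0.0114%), with medians of 0.098 and 0.045. Hypoxia response genes also stood apart in replicate 1 labelled WT. The 16 genes of their list summed to 3741 and 3072 CPM labelled CPT2 KO, against 10281 and 3015 CPM in replicates 1 and 2 labelled WT, with 0 called (edgeR, and 0 at an unadjusted p under 0.05). The 12 immediate early genes, which follow handling and stress, summed to 163 and 159 CPM labelled CPT2 KO, against 177 and 181 CPM labelled WT, with 0 of 11 tested called (edgeR) and 1 lower at an unadjusted p under 0.05. The part of either in the members' values was not tested.

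**Figure D4:**
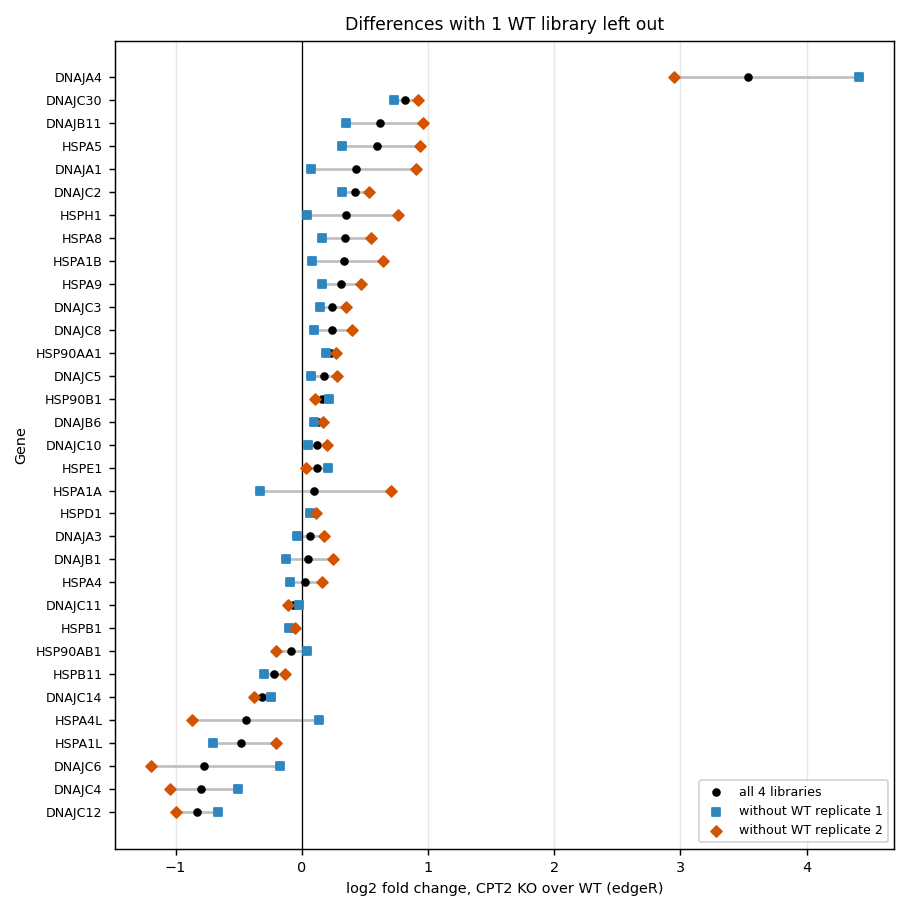
Log2 fold changes of the 33 members named by the rule, CPT2 KO over WT, with all 4 libraries (black), without WT replicate 1 (blue squares) and without WT replicate 2 (orange diamonds). DNAJC30, HSPD1 and HSP90AA1 hardly move, whereas HSPA5 lies at 0.32 without WT replicate 1 and at 0.94 without WT replicate 2, and HSPA4L and HSPA1A change sign.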

How the data were processed

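The authors deposited raw read counts per gene symbol with gene lengths in bases, not normalized, per the file headers. The submitters' processing notes name HISAT2 2.1.0, featureCounts 1.6.4 and the build hg38 (GRCh38). Strand setting, treatment of reads with several alignments and annotation release were not stated, so reads of overlapping or near-identical genes are uncertain, and 35 of the 72 members share exon positions with another gene in GENCODE 29.

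From these counts, CPM were computed with library sizes scaled by TMM, and RPKM from CPM and the deposited lengths. Genes were kept with filterByExpr by group (10 counts, 0.5185 CPM). The quasi-likelihood test of edgeR 4.0.16 (R 4.3.3, robust, group as the 1 term) was fitted to the whole table, and p-values were adjusted by Benjamini-Hochberg over all 17564 tested genes. The SE was taken from the log2 fold change and F. The fit was checked on simulated data. Alternatives were other scalings, filters and thresholds, no robust estimation, DESeq2 1.42.0, limma-voom (limma 3.58.1), a replicate block, mitochondrial genes left out and each library left out with the same genes. The legacy quasi-likelihood estimate was added after seeing the data. Shares of counts have narrow 95% exact binomial intervals (4.141% to 4.159% for the mitochondrial share of replicate 1 labelled WT), which cover counting error only, as does the floor of 3 counts.

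Members, compartments and gene lists were chosen with earlier results of these data known, and compartments were assigned by hand. Named members are those called with all libraries or with 1 left out, the highest and most different of each class, and fixed chaperones. In other lists the most different and the most abundant gene is named; HSF1, HSF4, CCT8, XBP1, ATF6, HERPUD1 and other members given briefly fall outside this rule, and 1 gene that it names is not reported here.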

Additional observations from a re-analysis of the deposited data

How the results depend on the processing

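DNAJA4, HSPA1L and DNAJC12 rest on few counts, and 2 libraries a group limit every call. Over all genes, where the main count was 63 higher and 10 lower, no filter gave 101 and 23, DESeq2 138 and 45, limma-voom 28 and 2, and a threshold of 0.01 gave 27 and 2. Each library left out in turn gave 31 to 531 higher and 2 to 674 lower, with both highest counts without replicate 2 labelled WT. Members called ranged from 0 to 5 higher and 0 to 3 lower in the same way, against 1 and 0 in the main result, and limma-voom and a threshold of 0.01 each gave 0 higher. The members' median ranged from 0.035 to 0.17, against 0.076. Other genes of the pathway gave 0 to 10 higher and 0 to 3 lower. CPT2 ranged from 1.64 to 1.95; it lost its call with limma-voom (1.78, adjusted p = 0.0634), at a threshold of 0.01 (1.78), and with the first or the second CPT2 KO library left out (edgeR adjusted p = 0.168 and 0.0511). DNAJA4 ranged from 2.95 to 4.42 over 16 alternatives and kept its call in 13 of them. The replicate numbers do not pair the samples by the labels, and with 2 pairs the correlation of replicate differences between the groups was 0.219. With the replicate number as a block, 233 genes were higher and 140 lower, 3 members were higher (DNAJA4, HSPA5 at 0.62 and DNAJB11 at 0.65), and 3 other genes of the pathway were higher.

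Signs of uncalled members changed when a library was left out, and the cause was not tested. Without replicate 1 labelled WT, DNAJA3 was at -0.037, DNAJB1 at -0.13, HSP90AB1 at 0.044, HSPA1A at -0.33, HSPA4 at -0.097 and HSPA4L at 0.14, while without replicate 2 labelled WT these were at 0.18, 0.25, -0.20, 0.71, 0.16 and -0.87. Without replicate 2 labelled CPT2 KO, DNAJC11 was at 0.044, DNAJC5 at -0.077, HSPA1A at -0.23 and HSPA1B at -0.17. HSPB1 was at 0.096 without the first library labelled CPT2 KO and at -0.27 without the second. With replicate 1 of that group left out, DNAJC11 was at -0.18, DNAJC5 at 0.39 and HSPA1B at 0.73. Of the values of single members under each alternative, 505 kept their direction and their side of the threshold, 3 lost a call and 9 gained one. The median of all genes, 0.0017, lay between -0.019 and 0.010 and changed sign in 7 of 16 alternatives. The 10 members with the highest RPKM share 8 with the 10 highest by CPM.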
